A study of Homo sapiens with 12 samples.

Results

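The results describe zoledronic acid (ZA) given alone: 6 of the 12 RNA sequencing libraries of the series, 3 from ZA-treated and 3 from vehicle-treated MDA-MB-231 cells, over all genes with counts. MDA-MB-231 is an established human triple-negative breast cancer line with a mesenchymal character. All dishes of the series received 0.02% DMSO and 0.1% water as solvents. The vehicle dishes received nothing else, the ZA dishes received 1 µM ZA, and both were harvested after 24 h. The other 6 libraries received 2 µM benzyl isothiocyanate (BITC), an electrophile from cruciferous plants, with or without 1 µM ZA. BITC+ZA against BITC is used here as a second comparison with ZA as its difference. Its 6 libraries are separate from those of ZA and vehicle.

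Zoledronic acid is a nitrogen-containing bisphosphonate given against bone metastasis. It inhibits farnesyl diphosphate synthase, an enzyme of the mevalonate pathway encoded by FDPS. The pathway's products include cholesterol and the farnesyl and geranylgeranyl lipids that are attached to small GTPases such as Ras and Rab proteins and hold them at membranes. Bisphosphonates enter bone-resorbing osteoclasts readily and most other cells poorly.

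RHOB encodes a short-lived, prenylated small GTPase of endosomes and was the single gene whose rise held in every fit that left out 1 of the 6 libraries. Its promoter is shown because the results turn on this gene, with the motif CCAAT in capitals. The 250 bases before its RefSeq start (GRCh38.p14, plus strand, chr2:20446824-20447073) were, 5′ to 3′:

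RHOB promoter: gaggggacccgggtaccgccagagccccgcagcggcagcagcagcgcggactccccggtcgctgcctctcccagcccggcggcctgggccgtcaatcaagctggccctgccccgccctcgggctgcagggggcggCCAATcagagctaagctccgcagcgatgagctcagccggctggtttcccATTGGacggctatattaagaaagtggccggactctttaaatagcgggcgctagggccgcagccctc

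The motif was searched on both strands and matched at 115 and 66 bases before the start, the nearer match on the minus strand. CCAAT occurred in 32% of 35116 RefSeq promoter windows, so its presence is common. TATAAA was not in the window and occurred in 10.7% of all windows. The matches are a description of the sequence.

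RHOB (ENSG00000143878, chromosome 2, 20447074 to 20449445) was at 22.6, 21.4 and 23.3 CPM (counts per 1000000 counts of the library) in the 3 vehicle libraries. It was at 36.8, 38.9 and 38.0 CPM in ZA libraries 1, 2 and 3. The groups did not overlap, and the ZA libraries lay close together. The mean rose from 22.4 ± 0.921 to 37.9 ± 1.04 CPM (SD, n = 3 each), a log2 fold change of 0.76 (SE 0.07, adjusted p = 1.83e-06 in the quasi-likelihood test of edgeR, Benjamini-Hochberg adjusted, as for every adjusted p here unless said otherwise). Without ZA library 1 it was 0.78 (adjusted p = 3.77e-10), and with a further correction for GC content and gene length 0.61 (adjusted p = 1.29e-07). The highest adjusted p in any fit without 1 vehicle or ZA library was 0.000166. In BITC+ZA against BITC, RHOB also rose, from 22.0, 22.2 and 20.8 to 33.0, 32.4 and 32.02 CPM (log2 fold change 0.58, adjusted p = 6.71e-05). The difference between both ZA effects was −0.17 (adjusted p = 0.404).

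**Figure D1:**
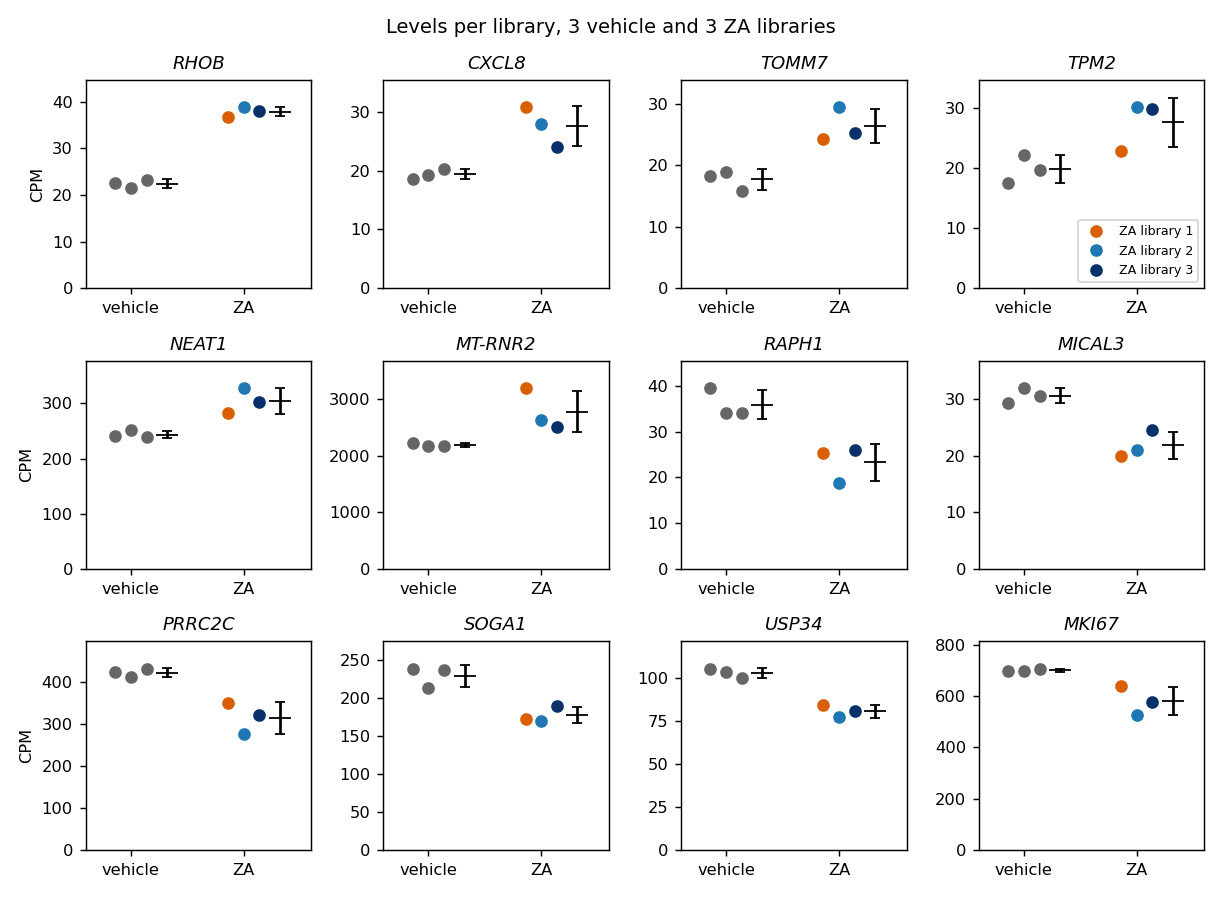
Levels of 12 genes in CPM on linear axes that start at 0, one panel a gene, with 1 point a library and a bar for the mean ± SD of 3 libraries. Grey points are vehicle and coloured points ZA libraries 1 to 3; in each of the 12 panels every ZA library lies on the same side of all vehicle libraries.

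Across all genes the recorded response was small. Of 14950 genes tested, 159 passed an adjusted p below 0.05 (1.06%), 53 higher (0.355%) and 106 lower (0.709%). The median size of these changes was 1.2-fold, and 6 of the genes changed at least 1.5-fold. In 157 of them the ZA libraries did not overlap the vehicle libraries, as in 16.4% of all genes tested. Protein-coding genes made up 152 of them. Reads of paralogs, pseudogenes and overlapping or antisense genes cannot be told apart here, because no source used here states how reads were counted or whether strand was used.

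The number of calls depended on ZA library 1. Without it, 2489 of 15275 genes were called (16.3%), 1399 higher (9.16%) and 1090 lower (7.14%), the median change being 1.18-fold and 124 genes reaching 1.5-fold. With a correction for GC content and gene length as well, 943 were called (6.17%), 469 higher (3.07%) and 474 lower (3.1%). For ZA against vehicle, this corrected fit without ZA library 1 is meant wherever a correction is named, unless all libraries are stated. For BITC+ZA against BITC, corrected values are from the fit of all 12 libraries. All but 1 of the genes called with all libraries were also called without ZA library 1, the exception being SNHG16, a host of small nucleolar RNAs (adjusted p = 0.0869). Of these genes, 108 were called in the same direction with the correction as well. Leaving out vehicle library 1 instead left 1 call, RHOB. Without vehicle library 2 there were 30 calls, without vehicle library 3 there were 27 and without ZA library 2 there were 16, against 194 without ZA library 3. Without BITC library 1, which enters through the pooled spread, there were 89, and without BITC+ZA library 1, 2 or 3 there were 84, 80 and 83. Over the 6 fits that each lacked 1 vehicle or ZA library, 1 of the called genes held in all 6 and a further 13 in 5. The second comparison, BITC+ZA against BITC, gave 2205 calls of 14950 (14.7%), 987 higher (6.6%) and 1218 lower (8.15%), and with the correction for GC content and length 1390 (9.3%), 536 higher (3.59%) and 854 lower (5.71%). The counts for gene lists are to be read against these shares.

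ZA library 1 stood apart from ZA libraries 2 and 3 as follows. The SD of the log2 difference between ZA library 1 and ZA libraries 2 and 3 was 0.270 and 0.256, against 0.153 between those 2 and 0.147 to 0.156 between vehicle libraries. The rank correlation, over 10700 genes, of a library's deviation with GC content was −0.50 in ZA library 1, 0.53 and 0.58 in ZA libraries 2 and 3, and −0.31, −0.02 and −0.07 in the vehicle libraries. With gene length it was −0.14, −0.37 and −0.23 in ZA libraries 1 to 3 and 0.27, 0.15 and 0.16 in the vehicle libraries. Mitochondrial reads made up 4.95% of counts in ZA library 1, 3.88 and 3.92% in the other ZA libraries and 3.48 to 3.60% in vehicle. Totals were 15874857 to 17375664 counts over the 6 libraries, so depth differed little. The part of these library differences in the calls was not tested beyond the correction above.

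**Figure D2:**
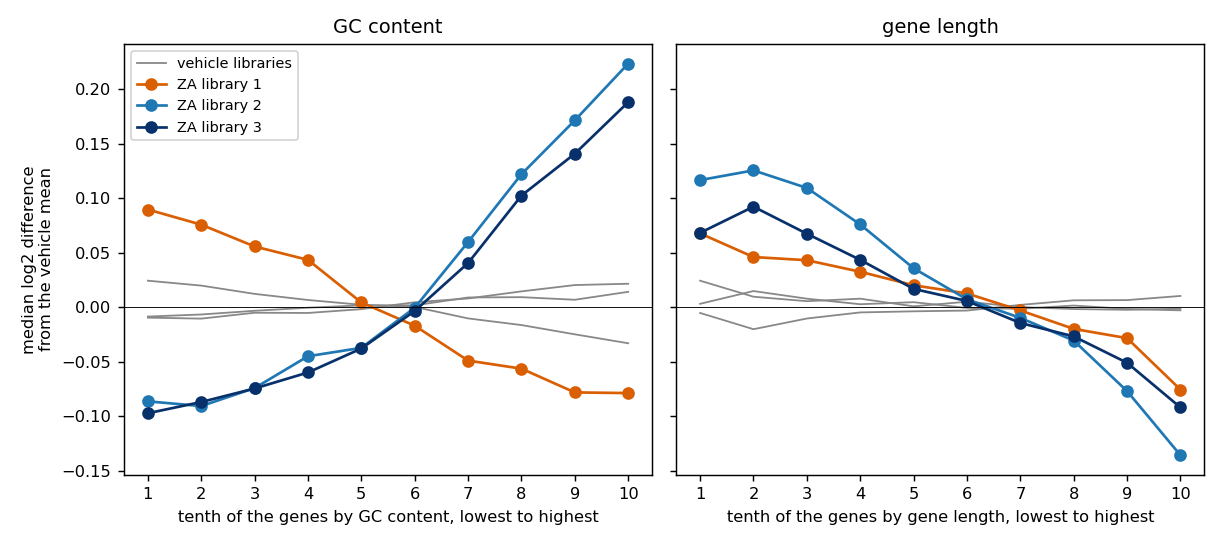
Median log2 difference of each library from the mean of the vehicle libraries, for 10 bins of equal size of the tested genes ordered by GC content (left) or gene length (right). ZA library 1 slopes down with GC content where ZA libraries 2 and 3 slope up (highest bin −0.08, against 0.22 and 0.19), while all 3 ZA libraries slope down with length (longest bin −0.08, −0.14 and −0.09).

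The labels were checked against genes known for the line and the compounds. VIM, the mesenchymal filament, was at 1140 to 1347 CPM over the 6 libraries, CD44 at 885 to 950 and AXL at 1300 to 1508. ESR1 and PGR, the hormone receptors, and ALB, a marker of hepatocytes, had 0 counts in every library, and CDH1 stayed at or below 0.895 CPM. CD14 reached 1.44 CPM at most, and PTPRC, CD3E, PECAM1 and CDH5 lay below that. Of the stromal markers, PDGFRB was at 15.97 to 20.8 CPM and ACTA2 at up to 2.80 CPM. EPCAM (15.1 to 18.9 CPM), GATA3 (17.5 to 19.1 CPM) and ERBB2 (78.4 to 104 CPM), listed as low in this line, were counted at these levels. NQO1, a quinone reductase of the electrophile response that stood at 434 to 438.5 CPM under BITC, was at 258 CPM in ZA library 1, 257 and 250 CPM in ZA libraries 2 and 3 and 242 to 258 CPM in vehicle. FTL, the ferritin light chain, was likewise at 2278, 2249 and 2334 CPM in the ZA libraries against 3470 to 3633 CPM under BITC. At these 2 genes and at RHOB, ZA library 1 lay with ZA libraries 2 and 3.

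At other genes ZA library 1 lay nearer to the BITC libraries than to ZA libraries 2 and 3. COX8A, a small subunit of cytochrome c oxidase, was at 72.7 CPM in ZA library 1 and at 168 and 146 CPM in ZA libraries 2 and 3. It was at 94.7, 100 and 89.3 CPM in vehicle and at 79.1, 73.7 and 76.2 CPM under BITC. Among the genes with a mean of at least 20 CPM, the 6 furthest below ZA libraries 2 and 3 were EIF3C, RPL26, COX8A, SAA1, COX6A1 and TMSB4XP8, and the 6 furthest above were GTF2IP1, SMN1, AC024293.1, EEF1A1P5, MTATP6P1 and SEC61G. SEC61G, a subunit of the protein translocation channel, was at 104 CPM in ZA library 1, 57.9 and 59.7 CPM in the other ZA libraries and 86.5 to 91.6 CPM under BITC. Over 10700 genes at 5 CPM or more, 173 lay in ZA library 1 more than 1.5-fold from the mean of ZA libraries 2 and 3 (1 CPM added to both), 41 above and 132 below. For 34 of the 41 the BITC mean also lay above vehicle, and for 122 of the 132 it lay below. The same share over all genes was not counted, so these counts do not measure a likeness to BITC. Of the 41, 19 were processed pseudogenes, as were 7 of the 132 and 118 of the 10700. Several of these names (EIF3C, SMN1, GTF2IP1 and the pseudogenes) have near-identical copies with which reads may be shared, so their values are uncertain, and EIF3C ran from 21.8 to 82.2 CPM among the vehicle libraries alone. The correlation of log2 levels across these genes, which are not independent replicates, was 0.9932 to 0.9937 between ZA library 1 and the BITC libraries. It was 0.9871 and 0.9884 with ZA libraries 2 and 3 and 0.9922 to 0.993 with vehicle.

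Other large rises with all libraries included genes of low count. AK9, an adenylate kinase, had the largest called rise, from a mean of 1.65 to 3.34 CPM (1.01, adjusted p = 0.0317), and was named after its value was seen. BLOC1S1, a subunit of a lysosome biogenesis complex, was at 0.66 (adjusted p = 0.047), the antisense gene ZNF674-AS1 at 0.57 and AL390719.1 at 0.54 on the log2 scale.

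In the fit that lacks ZA library 1, several of the genes with the largest changes were those at which that library stood apart. MRPL12, a mitochondrial ribosomal protein, was at 13.0, 13.2 and 9.89 CPM in vehicle and at 8.24, 27.6 and 22.6 CPM under ZA, with ZA library 1 below all vehicle libraries (1.06, adjusted p = 1.74e-08 without it, 0.434 with it). TAF10, a subunit of the general factor TFIID, was at 7.66, 9.60 and 7.22 CPM and 7.09, 19.9 and 14.5 CPM (1.08, adjusted p = 2.17e-07 without it, 0.272 with it). COX8A (0.73), FAM207A (0.73), DHRS4, TMEM256, TM7SF2 and MT-TY behaved likewise, ZA library 1 lying below the mean of vehicle and ZA libraries 2 and 3 above every vehicle library. Of those lower, KLHL11 was below vehicle in all 3 ZA libraries (5.75, 6.31 and 5.01 CPM against 8.18, 8.11 and 8.70), and the pseudogenes RPL26P19 and RPSAP47 were above vehicle in ZA library 1 and below it in the others.

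In ZA's own pathway none of the 9 mevalonate trunk genes was called, where 1.06% of all genes were, so that the count says nothing particular about them. Their median log2 fold change was 0.13, against 0.02 over all genes tested. FDPS, the enzyme that ZA inhibits, was at 64.1, 66.5 and 63.9 CPM in vehicle and at 63.8, 70.01 and 73.3 CPM under ZA. ZA library 1 lay below all vehicle libraries and the other ZA libraries above them (log2 fold change 0.09, SE 0.06, adjusted p = 0.546; 0.15, adjusted p = 0.0846 without ZA library 1). Without ZA library 1, MVK and PMVK, kinases of mevalonate and phosphomevalonate, were the 2 of 9 called higher, against 9.16% of all genes (0.26, adjusted p = 0.0358, and 0.36, adjusted p = 0.0209), and neither was with the correction (adjusted p = 0.372 and 0.569).

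The sterol branch had no call among 19 genes tested, with a median of 0.06. INSIG1, a sterol-regulated retention protein of the endoplasmic reticulum, was at 147, 151 and 153 CPM in vehicle and 165, 158 and 153 CPM under ZA (log2 fold change 0.08, adjusted p = 0.474). GGPS1, which makes geranylgeranyl diphosphate, was at 10.5, 11.6 and 10.2 CPM and 14.5, 11.3 and 9.89 CPM (adjusted p = 0.670). In the fit that lacks ZA library 1, 4 of the 19 sterol genes were called higher and 0 lower, and with the correction 2 and 0 (all genes 3.07% and 3.1%). Among them LSS, lanosterol synthase, stood at 126, 119 and 127 CPM in vehicle and 117, 156 and 150 CPM under ZA, with ZA library 1 below vehicle.

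Of 12 genes for prenyl transferases and prenyl processing, 1 was called. RABAC1, a membrane protein that binds prenylated Rab GTPases, rose from 3.57, 2.99 and 3.91 CPM to 4.41, 6.55 and 7.21 CPM (log2 fold change 0.80, SE 0.20, adjusted p = 0.0465; 0.98, adjusted p = 0.000206 without ZA library 1). The gene is counted at a low level, and its ZA libraries spread more than its vehicle libraries. Its call held in 1 of the 6 fits without a vehicle or ZA library. It was not called with the correction and all libraries (0.62, adjusted p = 0.0588), but was without ZA library 1 and with the correction (0.73, adjusted p = 0.0116). In BITC+ZA against BITC it did not pass (0.18, adjusted p = 0.588). RABGGTB, the catalytic subunit that geranylgeranylates Rabs, was at 113, 109 and 103 CPM and 119, 125 and 119 CPM. It was not called with all libraries (0.16, adjusted p = 0.123), was called without ZA library 1 (adjusted p = 0.00826) and with the correction (1.33e-05), and rose in BITC+ZA against BITC (0.18, adjusted p = 0.0228).

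RHOA, RAC1, RHOC and CDC42, other prenylated small GTPases, were not called with all libraries. RHOA, the classical regulator of stress fibres, was at 839, 810 and 820 CPM in vehicle and 923, 842 and 829 CPM under ZA (log2 fold change 0.07, adjusted p = 0.482). RAC1, which drives lamellipodia, was at 587, 581 and 590 CPM and 640, 590 and 558 CPM (0.02, adjusted p = 0.855). The groups overlapped at both genes, ZA library 1 being the highest at each. RHOC was at 159, 163 and 154 CPM in vehicle and at 139, 191 and 192 CPM under ZA, so it was called without ZA library 1 (0.27) and had an adjusted p of 0.561 with it. CDC42 was counted at only 0.517 to 1.21 CPM, a level at which little can be read. In the GENCODE annotation another protein-coding record on the same strand, AL031281.2, spans the whole of CDC42, and how reads that fall in both were counted is not known, so the value may not be the gene's level. Per gene length, RHOB was at a lower level than RHOA: its FPKM was 9.50, 9.03 and 9.79 in vehicle and 15.3, 16.01 and 15.8 under ZA, against 313 to 325 in vehicle and 316 to 353 under ZA for RHOA. No gene of the 17 Ras and Rap GTPases tested was called.

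Among regulators of small GTPases, TRIO, DOCK1, ARHGEF12 and ARHGAP21 were called lower. DOCK1, an exchange factor for Rac, fell from 81.8, 86.9 and 84.2 CPM to 71.1, 69.3 and 70.5 CPM (log2 fold change −0.26, SE 0.05, adjusted p = 0.0176; −0.27, adjusted p = 0.000314 without ZA library 1). TRIO, a large exchange factor that acts on Rac, fell from 467, 472 and 466 CPM to 401, 385 and 433 CPM (−0.20, adjusted p = 0.0317). At both genes every ZA library lay below every vehicle library. With the correction and all libraries, TRIO was at −0.10 (adjusted p = 0.0853) and ARHGEF12 at −0.05 (adjusted p = 0.518), and neither was called. ARHGEF12 was not called without ZA library 1 and with the correction either (adjusted p = 0.550), while TRIO was (−0.13, adjusted p = 0.00294). DOCK1 (−0.20, adjusted p = 0.0136) and ARHGAP21 (−0.14, adjusted p = 0.0441) stayed called with the correction and all libraries. The kinases ROCK1 and ROCK2 were lower with ZA library 1 left out (−0.20 and −0.19, adjusted p = 0.00258 and 0.00341) and were not called with the correction (adjusted p = 0.474 and 0.502). In BITC+ZA against BITC neither DOCK1 (−0.00) nor TRIO (0.09) was called.

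Actin and lamellipodium genes included the largest fall among genes at 5 CPM or more. RAPH1, which encodes lamellipodin, a recruiter of Ena/VASP proteins to the cell edge, fell from 39.6, 34.1 and 34.0 CPM to 25.4, 18.7 and 25.9 CPM. No ZA library reached the lowest vehicle library (log2 fold change −0.62, SE 0.11, adjusted p = 0.00738; −0.68, adjusted p = 0.000177 without ZA library 1; −0.56, adjusted p = 0.000326 with the correction). Its call was lost in 1 of the 6 fits without a vehicle or ZA library, and in BITC+ZA against BITC it was −0.10 (adjusted p = 0.544). MICAL3 and MICAL2, actin-oxidising monooxygenases, fell by 0.49 and 0.24 on the log2 scale (adjusted p = 0.00738 and 0.0141). MICAL3 was at 29.3, 31.96 and 30.5 CPM in vehicle and at 20.004, 20.97 and 24.5 CPM under ZA. With DST and SPTBN1, long cytoskeletal linkers, 5 of 29 tested were lower and 0 higher (all genes 0.709% and 0.355%). The calls of both linkers ended with the correction and all libraries (DST −0.08, adjusted p = 0.243, SPTBN1 −0.07, adjusted p = 0.221). In the fit that lacks ZA library 1 the list had 5 higher and 9 lower (all genes 9.16% and 7.14%), and with the correction 3 and 3 with a median of 0.00. In BITC+ZA against BITC, MICAL3 was at 0.25 (adjusted p = 0.0571) and DST rose (0.17, adjusted p = 0.0274). With the correction there they were at −0.02 (adjusted p = 0.910) and 0.09 (adjusted p = 0.0746), and DST was no longer called.

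Small actin-binding genes were among those higher. TPM2, the beta tropomyosin, rose from 17.5, 22.2 and 19.7 CPM to 22.9, 30.2 and 29.8 CPM (log2 fold change 0.48, SE 0.10, adjusted p = 0.0221; 0.60, adjusted p = 3.42e-06 without ZA library 1), and ZA library 1 lay just above the highest vehicle library. It also rose in BITC+ZA against BITC (0.47, adjusted p = 0.00551). TWF2, a twinfilin that caps actin filaments, stood at 32.3, 33.3 and 30.8 CPM and 33.9, 50.1 and 49.2 CPM (0.47, adjusted p = 0.0371), and its rise rested on ZA libraries 2 and 3. TPM2 was the 1 call among 17 targets of the actin-responsive factors MRTF and SRF, whose median was 0.02. ACTB, MYH9, VCL and ZYX of that list were not called. Of 16 YAP and TEAD targets and partners, PTPN14 (−0.25, adjusted p = 0.0077) and TEAD1 (−0.21, adjusted p = 0.0281) were lower and 0 higher, with a median of −0.02. Of 23 integrin and focal adhesion genes, 1 was lower: LAMA3, a laminin chain, from 60.2, 57.4 and 57.5 to 44.6, 46.0 and 48.1 CPM (−0.33, adjusted p = 0.0176).

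**Figure D3:**
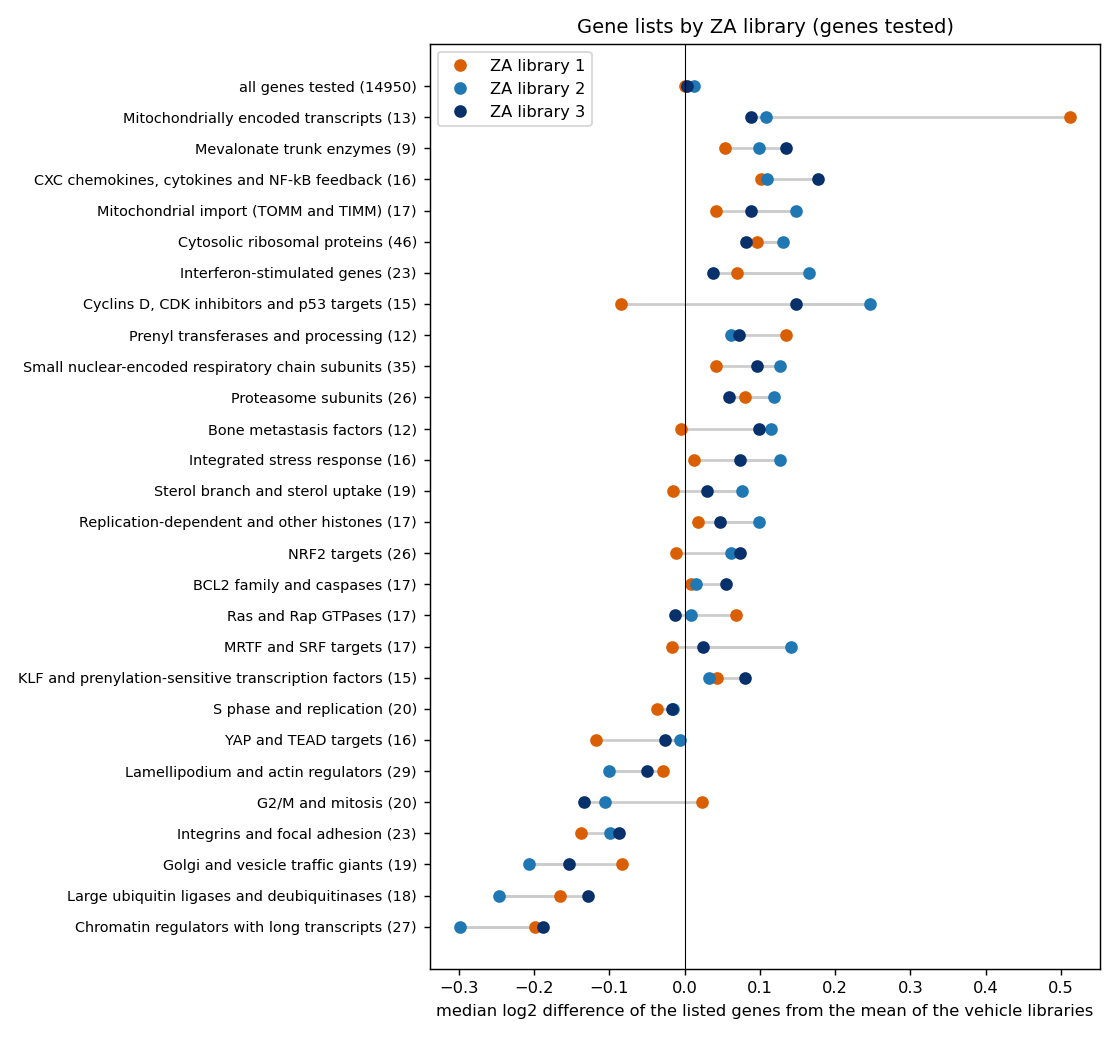
Median log2 difference from the vehicle mean over the tested genes of each list, with 1 point for each ZA library and the number of genes tested in brackets. The 3 libraries lie together for chromatin regulators with long transcripts (−0.20, −0.30 and −0.19) and apart for mitochondrially encoded transcripts, where ZA library 1 is at 0.51 and the others at 0.11 and 0.09, and for cyclins D, CDK inhibitors and p53 targets, where it is at −0.08 and they are at 0.25 and 0.15.

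Genes with long transcripts supplied most of the falls. The median exon length was 12510.5 bases for genes called lower, 2155 for genes called higher and 4617.5 for all tested. Of 1576 genes of 10000 bases or longer, 76 were called lower (4.82%) and 4 higher (0.254%). Of 13374 shorter genes, 30 were lower (0.224%) and 49 higher (0.366%). Length and function can therefore not be told apart in the lists of long genes below.

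**Figure D4:**
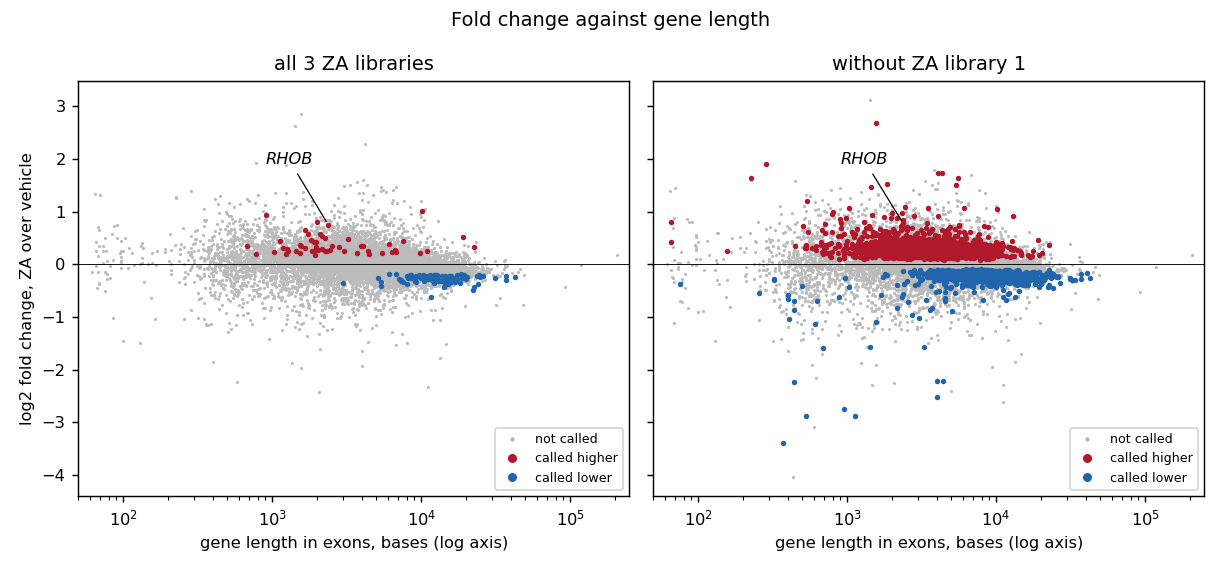
Log2 fold change of each tested gene against its exon length in bases on a log axis, with all 3 ZA libraries (left) and without ZA library 1 (right), and called genes in colour. The 106 lower calls gather among long genes on the left; on the right the 1089 lower and 1397 higher calls among the same genes spread over more lengths, and RHOB (0.76 and 0.78) is named in both.

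Of 27 chromatin regulators with long transcripts, 8 were called lower and 0 higher, with a median of −0.22 and a median length of 15492 bases. The 8 were EP300, CREBBP, KMT2A, KMT2C, NSD1, ARID1A, ATRX and TRRAP. CREBBP, a histone acetyltransferase, fell from 117, 109 and 109 CPM to 96.6, 81.1 and 93.3 CPM (log2 fold change −0.31, SE 0.06, adjusted p = 0.011), and its homologue EP300 from 86.0, 87.8 and 83.5 to 67.5, 63.5 and 74.9 CPM (−0.32, adjusted p = 0.0155). KMT2A, a histone H3 lysine methyltransferase, fell from 160, 158 and 162 to 139, 125 and 137 CPM (−0.26, adjusted p = 0.0275). In 23 of the 27 the groups did not overlap, as in 16.4% of all genes tested. With the correction and all libraries, EP300 (−0.24, adjusted p = 0.00585) and ARID1A (−0.17, adjusted p = 0.0381) stayed called. CREBBP (−0.24, adjusted p = 0.129), KMT2A (−0.10, 0.180), KMT2C (0.192), NSD1 (0.195), ATRX (0.120) and TRRAP (0.0853) did not. When ZA library 1 was left out, the list had 1 call higher and 19 lower (all genes 9.16% and 7.14%), and with the correction 1 and 10 (3.07% and 3.1%), CREBBP (−0.36), EP300 (−0.26) and KMT2A (−0.12) among the lower. In BITC+ZA against BITC 6 of the 27 were higher and 0 lower (all genes 6.6% and 8.15%), KMT2A among them (0.29, adjusted p = 0.00353; 0.17, adjusted p = 0.0039 with the correction).

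Large ubiquitin ligases and deubiquitinases gave 4 calls lower of 18 and 0 higher. USP34, a deubiquitinase linked to Wnt signalling, fell from 106, 103 and 99.9 CPM to 84.4, 77.0 and 80.6 CPM (log2 fold change −0.35, SE 0.06, adjusted p = 0.00322; −0.38, adjusted p = 3.90e-07 without ZA library 1). HUWE1, a HECT ligase of nuclear proteins, fell from 471, 471 and 468 to 394, 359 and 414 CPM (−0.27, adjusted p = 0.00738), with MYCBP2 (−0.34) and UBR4 (−0.24). Of 19 long genes of Golgi and vesicle traffic, 3 were lower and 0 higher: DYNC1H1, the dynein heavy chain, LRBA and WDFY3. With the correction and all libraries, USP34, HUWE1, MYCBP2 and WDFY3 stayed called. UBR4 (adjusted p = 0.0746), DYNC1H1 (0.0830) and LRBA (0.114) did not. In the fit that lacks ZA library 1 each of these lists had 12 lower and 0 higher (all genes 7.14% and 9.16%), and with the correction 4 and 2 lower (3.1%). In BITC+ZA against BITC the first list had 5 higher and 2 lower, and the second 4 and 1 (all genes 6.6% and 8.15%). UBR4 (0.27, adjusted p = 0.00222) and DYNC1H1 (0.20, adjusted p = 0.0087) were called higher there, and the other genes named were not called. With the correction there, UBR4 stayed called (0.11, adjusted p = 0.0435) and DYNC1H1 did not (−0.03).

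The 14 genes that held in at least 5 of the 6 fits lacking a vehicle or ZA library comprised 10 lower and 4 higher. The lower were RAPH1, PRRC2C, SOGA1, USP34, WNK1, WDFY3, MED1, NUP214, FAT1 and HEG1. PRRC2C, an RNA-binding protein of stress granules, fell from 424, 412 and 433 CPM to 351, 275 and 321 CPM (log2 fold change −0.42, SE 0.07, adjusted p = 0.00738; −0.50, adjusted p = 0.000721 without ZA library 1). SOGA1 fell from 238, 212 and 236 to 172, 170 and 189 CPM (−0.37, SE 0.06, adjusted p = 0.00322). The higher were RHOB, CXCL8, NEAT1 and MT-RNR2. NEAT1, the nuclear long noncoding RNA that scaffolds paraspeckles, rose from 240, 251 and 239 CPM to 282, 328 and 302 CPM (0.32, SE 0.05, adjusted p = 0.00322; 0.38, adjusted p = 6.37e-10 without ZA library 1). At 22767 bases NEAT1 was one of the 4 long genes called higher, and it also rose in BITC+ZA against BITC (0.58, adjusted p = 1.69e-07). None of the 10 lower genes was called in that comparison. RAPH1, PRRC2C, USP34, WNK1 and HEG1 lay there at −0.10 to −0.02. SOGA1, WDFY3, MED1, NUP214 and FAT1 had the opposite sign there, at 0.04 to 0.12.

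CXCL8 encodes interleukin 8, a neutrophil attractant that MDA-MB-231 cells secrete. Its promoter is shown because the direction of the ZA difference depended on BITC at this gene. The 250 bases before the RefSeq start (GRCh38.p14, plus strand, chr4:73740319-73740568) were, 5′ to 3′, with TGACTCA, a site of AP-1, and GGAATTTCC, a site of NF-kB, in capitals:

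CXCL8 promoter: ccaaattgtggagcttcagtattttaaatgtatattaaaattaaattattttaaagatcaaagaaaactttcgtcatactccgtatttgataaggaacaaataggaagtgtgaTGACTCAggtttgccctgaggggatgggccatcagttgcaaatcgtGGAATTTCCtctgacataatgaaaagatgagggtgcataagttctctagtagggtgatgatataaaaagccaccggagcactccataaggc

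Both motifs were searched on both strands, do not overlap and lay 137 and 91 bases before the start. TGACTCA occurred in 4.2% and GGAATTTCC in 0.413% of the 35116 promoter windows. The matches do not show that either factor acted here.

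CXCL8 (ENSG00000169429, chromosome 4, 73740506 to 73743716 in the deposited tables, so the RefSeq start lies inside that record) rose from 18.6, 19.2 and 20.2 CPM in vehicle to 30.8, 27.8 and 24.0 CPM in ZA libraries 1 to 3. Every ZA library lay above every vehicle library, and library 1 was the highest (log2 fold change 0.51, SE 0.09, adjusted p = 0.00738; 0.42, adjusted p = 0.000649 without ZA library 1). Under BITC the gene was at 35.9, 33.2 and 34.0 CPM, and under BITC+ZA at 24.9, 24.3 and 21.7 CPM, so ZA went with a lower level there (−0.54, SE 0.09, adjusted p = 0.000947). The interaction of ZA and BITC was −1.05 (adjusted p = 0.000153), where 425 of 14950 genes passed (2.84%), 196 with a positive (1.31%) and 229 with a negative difference (1.53%). CXCL1, another neutrophil attractant, was at 3.16, 3.28 and 3.02 CPM and 4.98, 4.63 and 5.07 CPM. Its groups did not overlap, but it was not called with all libraries (0.63, adjusted p = 0.0824) and was without ZA library 1 (adjusted p = 0.0343). CXCL8 was the 1 call among 16 chemokine, cytokine and NF-kB feedback genes, whose median was 0.13. Of 12 genes tied to bone metastasis, 0 were called. PTHLH, the hormone-related peptide that drives bone resorption, was counted at 0.632 to 1.49 CPM.

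Among mitochondrial genes ZA library 1 was often the highest. Of 13 mitochondrially encoded transcripts, MT-ATP6 and MT-CO3 were called higher and 0 lower, with a median of 0.27. MT-ATP6, a subunit of ATP synthase, rose from 2915, 2770 and 2816 CPM to 4150, 3400 and 3222 CPM (log2 fold change 0.34, SE 0.07, adjusted p = 0.0317; 0.23, adjusted p = 2.79e-06 without ZA library 1). Each ZA library exceeded vehicle, and library 1 most. The 16S ribosomal RNA gene MT-RNR2, outside that list, rose from 2223, 2168 and 2178 to 3198, 2632 and 2506 CPM (0.34, SE 0.06, adjusted p = 0.0077). Nuclear pseudogenes such as MTATP6P1 may share these reads. Both MT-ATP6 (0.39, adjusted p = 0.00436) and MT-CO3 (0.35, adjusted p = 6.71e-05) also rose in BITC+ZA against BITC.

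Of 17 import genes of the TOMM and TIMM families, 2 were higher and 0 lower. TOMM7, a small subunit of the outer membrane translocase, rose from 18.3, 18.9 and 15.8 CPM to 24.2, 29.4 and 25.2 CPM (log2 fold change 0.57, SE 0.10, adjusted p = 0.00738; 0.63, adjusted p = 7.74e-06 without ZA library 1). TIMM13, a chaperone of the space between the membranes, rose from 64.0, 69.2 and 63.9 to 73.8, 91.0 and 83.8 CPM (0.34, adjusted p = 0.0136). Neither passed in BITC+ZA against BITC (0.11 and 0.15). Of 46 cytosolic ribosomal protein genes, RPLP2 and RPL35 were higher and 0 lower, with a median of 0.11, and all 46 log2 fold changes lay between 0.00 and 0.28. Neither call held with the correction and all libraries (RPLP2 0.12, adjusted p = 0.501, RPL35 0.05, adjusted p = 0.558). Leaving out ZA library 1, 25 were higher and 1 lower (all genes 9.16% and 7.14%), and with the correction 18 and 3 (3.07% and 3.1%). In BITC+ZA against BITC 3 were higher and 16 lower (6.6% and 8.15%). Other ribosomal protein genes, outside the list and named after their values were seen, were also called higher: RPS9 (0.25, adjusted p = 0.0176), RPS15A (0.28, adjusted p = 0.0478) and FAU (0.26, adjusted p = 0.0384). These 3 stayed called with the correction and all libraries (adjusted p = 0.00068, 0.00275 and 0.0215).

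Cell cycle and stress genes gave few calls. MKI67, the proliferation marker Ki-67, was at 699, 698 and 708 CPM in vehicle and at 639, 529 and 576 CPM under ZA, with no overlap (log2 fold change −0.27, SE 0.06, adjusted p = 0.0176; −0.34, adjusted p = 8.47e-08 without ZA library 1). MKI67 has 12807 exon bases. With the correction and all libraries it was not called (−0.17, adjusted p = 0.137). Without ZA library 1 and with the correction it was (−0.25, adjusted p = 4.32e-08). Uncorrected and with all libraries, MKI67 was the 1 call among 20 G2/M genes, whose median was −0.06. With ZA library 1 left out, 8 of the 20 were lower and 0 higher (all genes 7.14% and 9.16%), ASPM, CENPE, CENPF and TOP2A among them. With the correction as well, 9 were lower and 0 higher (all genes 3.1% and 3.07%). The G2/M median was 0.02 in ZA library 1 and −0.11 and −0.13 in ZA libraries 2 and 3. In BITC+ZA against BITC 1 was higher and 11 lower (6.6% and 8.15%), and MKI67 itself was not called (0.05). No gene was called among 20 of S phase, 15 of cyclins D, CDK inhibitors and p53 targets, 17 of the BCL2 family and caspases, 23 interferon-stimulated genes, 16 of the integrated stress response, 26 NRF2 targets, 26 proteasome subunits, 35 small respiratory chain subunits, 17 histones or 15 KLF and other prenylation-sensitive transcription factors. With 1.06% of all genes called, such counts of 0 say nothing particular about these lists, and the lists do not hold every gene of their class. Called genes outside them, named after their values were seen, were CLSPN (−0.33, adjusted p = 0.0141) and ATAD5 (−0.28) of DNA replication and IFI35 (0.42, adjusted p = 0.0275) and PARP14 (−0.32) of the interferon response. KLF2, a zinc finger factor of the KLF list known to respond to statins in endothelial cells, was at 39.4, 43.9 and 43.9 CPM and 48.4, 53.8 and 54.2 CPM, missed the threshold (0.30, adjusted p = 0.0597), and passed without ZA library 1 but not with the correction (0.563).

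Of the genes called for ZA against vehicle, 17 were called in BITC+ZA against BITC in the same and 17 in the opposite direction. The sign was the same for 85 of them all (53.5%), against 57.9% of all genes tested. The 17 that moved the same way were 13 higher, RHOB, NEAT1, TPM2, XRCC3, STXBP2, DDAH2, NAT9, NDRG1, MT-ATP6, MT-RNR2, MT-CO3, AC020916.1 and BX255925.3, and 4 lower, HEATR1, CKAP5, KLHL8 and TPR. XRCC3, a factor of recombination repair, rose from 22.5, 22.3 and 22.9 CPM to 26.7, 32.5 and 32.8 CPM (log2 fold change 0.44, adjusted p = 0.0186; BITC+ZA against BITC 0.35, adjusted p = 0.0165, and 0.12, adjusted p = 0.386, with the correction). NDRG1, known from hypoxia, rose from 125, 125 and 127 to 139, 153 and 146 CPM (0.22, adjusted p = 0.0317; 0.21, adjusted p = 0.00796). HEATR1, a factor of ribosome biogenesis, fell from 82.6, 83.8 and 88.0 to 76.4, 65.6 and 69.3 CPM (−0.27, adjusted p = 0.0334; −0.27, adjusted p = 0.00687). With the correction in BITC+ZA against BITC, 11 of the 17 stayed called there, and XRCC3, STXBP2, DDAH2, NAT9, KLHL8 and TPR did not. Of the 11, BX255925.3 was not called in ZA against vehicle with the correction and all libraries (adjusted p = 0.0600). Of the 17 opposite ones 8 stayed called in BITC+ZA against BITC with the correction: CXCL8, ID1, SNRPB, KMT2A, UBR4, NFAT5, SMG1 and AHNAK. LAMA3 (0.26, 0.17 with the correction, adjusted p = 0.0647) and ZFHX3 (0.26, then 0.12, adjusted p = 0.373) were among those that did not. In ZA against vehicle with the correction and all libraries, CXCL8 alone of the 8 stayed called (adjusted p = 0.00135). ID1 (adjusted p = 0.682), SMG1 (0.444), AHNAK (0.180), KMT2A (0.180), NFAT5 (0.101), SNRPB (0.0922) and UBR4 (0.0746) were not. Without ZA library 1 and with the correction, CXCL8, KMT2A and UBR4 were called (adjusted p = 0.000572, 0.0470 and 0.00712).

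**Figure D5:**
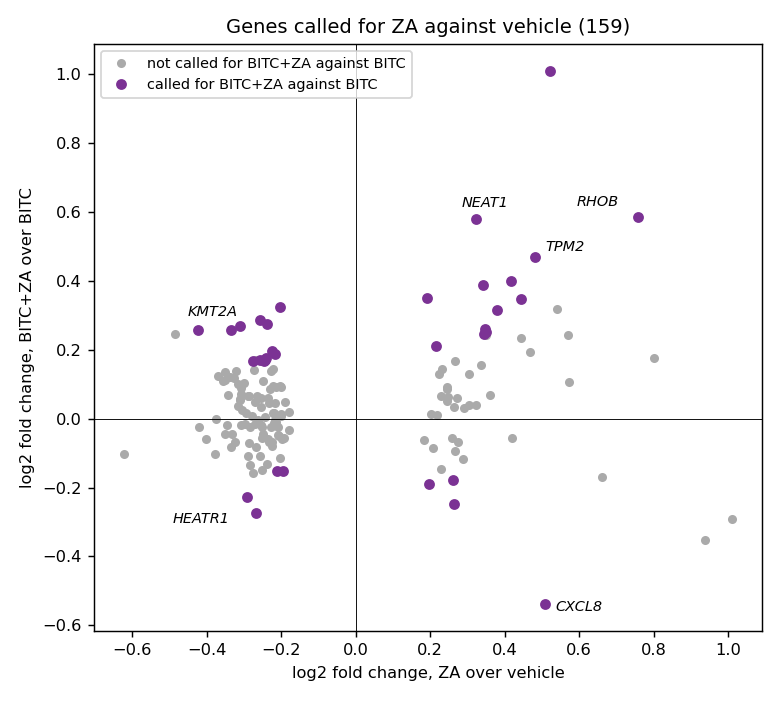
Each gene called for ZA against vehicle, with its log2 fold change there (horizontal) and in BITC+ZA against BITC (vertical); purple points are also called in the latter. RHOB, NEAT1 and TPM2 lie high on both axes, CXCL8 is higher on one and lower on the other, and the genes lower under ZA lie on both sides of 0 vertically.

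Without ZA library 1, 2098 of 2486 called genes (84.4%) had the same sign in BITC+ZA against BITC, against 65.6% of all genes, and 612 were called in both in the same direction and 45 in the opposite. With the correction in both comparisons, 729 of 943 (77.3%) had the same sign, against 57.8% of all genes, with 206 and 24. The BITC libraries had GC correlations of −0.60, −0.59 and −0.21 and the BITC+ZA libraries of 0.38, 0.31 and 0.48, the same order as vehicle and ZA libraries 2 and 3. Its part in the shared signs was not tested beyond that correction. For the 1397 genes called higher without ZA library 1, that library lay above all vehicle libraries in 364, within them in 453 and below them in 580. For the 1089 called lower it lay below them in 574, within in 292 and above in 223. Over all genes it lay above in 32.7% and below in 31.99%.

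The authors' deposited table gave 98 genes at an adjusted p below 0.05, 19 higher and 79 lower. Of its 24809 genes, 20201 in the authors' deposited table had an adjusted p of exactly 1, and every gene below 1 had a mean normalized count of at least 862. No source used here says what a 1 there stands for. RHOB had a p-value of 9.93e-13 and an adjusted p of 1 in the authors' deposited table, with a log2 fold change of 0.75. A Benjamini-Hochberg adjustment over all 24809 genes cannot turn that p-value into 1. At RHOB the 1 is therefore not the outcome of such an adjustment. RAPH1 and CXCL8 likewise had an adjusted p of 1 in the authors' deposited table, beside p-values of 1.82e-06 and 7.73e-05 there. In all, 555 genes in the authors' deposited table had a p-value below 0.05 and an adjusted p of 1. Of the genes called here, 92 were also below 0.05 in the authors' deposited table and 32 had an adjusted p of 1 there.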

How the data were processed

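RNA of MDA-MB-231 cells was sequenced in 12 libraries, and the 3 vehicle and 3 ZA libraries are described here. The deposited tables hold raw read counts per gene, not normalized by the authors, per the file headers. The authors' deposited comparison columns hold p-values, adjusted p-values and log2 fold changes of their own test. The authors' deposited FPKM values scale counts by gene length and library total. The submitters' processing notes name HISAT2, DESeq2 1.20.0 and GRCh38. How reads were counted, with which annotation release and whether by strand was not stated in any source used here. Gene lengths and coordinates are those of the deposited tables.

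Counts of the comparison tables were joined by gene identifier (27412 genes, 0 conflicting counts, 4593 missing values entered as 0, since a table omits genes with almost no reads in its 6 libraries). They were tested two-sided with edgeR 4.0.16 in R 4.3.3 (TMM normalization, filterByExpr, robust quasi-likelihood F test) in 1 model of all 4 groups and 12 libraries, with 8 residual degrees of freedom. This pools the spread over groups and leaves 14950 genes, and calls were made at 0.05 after Benjamini-Hochberg adjustment. The fits were tested on simulated counts. Those counts held no GC or length trend between ZA and vehicle and no library set apart. They therefore cannot show how the fits behave under these features of the data. Standard errors are the log2 fold change divided by the root of F. Levels are CPM after TMM, except for the cell markers from VIM to ERBB2 in the check of the labels. Those are CPM of the library total without TMM. Totals were 15874857 to 17375664 counts, and the common coefficient of variation was 0.0607. The genes tested held 99.9% of all counts. GC content came from the longest GENCODE transcript of a gene, for 14946 genes, and the correction used splines on GC content and length with 5 degrees of freedom. Promoters are from RefSeq.

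Nothing says that the libraries came from separate cultures beyond dishes plated in triplicate, so the p-values rest on the spread among these libraries alone, and that spread may be technical. No 2 vehicle libraries and no 2 ZA libraries agreed within sampling noise. Members, the 29 gene lists (605 symbols, 601 matched, 585 tested) and tests were chosen with earlier results of these data known. Genes were named by a rule: the 12 largest called changes per direction at 5 CPM or more, 10 per direction without ZA library 1, those called in both ZA comparisons, 6 per direction that set ZA library 1 apart at 20 CPM or more, and up to 4 per list. Genes held in at least 5 of the 6 fits and the other ones beyond this rule were named after their values were seen. A planned count of proteins with a CaaX end was not used here, and some planned genes and lists are not reported here. Alternatives were other normalization, filters, tools (DESeq2 1.42.0, limma 3.58.1 with voom weights or on log2(FPKM + 1) and log2(FPKM + 0.1)), thresholds, corrections, a replicate block and leaving out each library.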

Additional observations from a re-analysis of the deposited data

Results flagged for a closer look

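For 43 of the genes named in the text the ZA difference with BITC differed from that without BITC (interaction in edgeR's quasi-likelihood test, adjusted p below 0.05; 425 of 14950 genes, or 2.84%, passed). Genes with a large difference for ZA alone were named, and that difference is part of the interaction, so the number of these genes supports nothing. The interactions below are without the correction for GC content and length, and corrected ones are not given here. With the correction and all libraries, SPTBN1 was at −0.07 for ZA alone and −0.06 in BITC+ZA against BITC. CXCL8 was at 0.43 and −0.35. How many genes resemble either was not counted. The interaction was positive, on the log2 scale, for 34 genes. NEAT1 (0.26), higher in both comparisons, was one, and the others, all called lower with ZA alone, were MICAL3 (0.73), ZFHX3 (0.68), LAMA3 (0.59), NFAT5 (0.58), KMT2A (0.54), AHNAK (0.53), UBR4 (0.51), SOGA1 (0.49), HIPK2 (0.49), INSYN2B (0.47), ZNF609 (0.46), EP300 (0.46), WDFY3 (0.46), KMT2C (0.44), DYNC1H1 (0.42), NUP214 (0.42), HUWE1 (0.41), DST (0.41), MYCBP2 (0.41), SMG1 (0.40), PRRC2C (0.40), FAT1 (0.40), CREBBP (0.38), ARID1A (0.37), MED1 (0.35), TRRAP (0.35), WNK1 (0.33), MKI67 (0.32), PTPN14 (0.31), USP34 (0.31), TRIO (0.30), MICAL2 (0.30) and SPTBN1 (0.24). It was negative for 9 genes: AK9 (−1.30), TCEA1P2 (−1.29), CXCL8 (−1.05), SNRPB (−0.44), ID1 (−0.38), RPLP2 (−0.36) and RBM3 (−0.29), which were called higher with ZA alone, and CXCL1 (−1.17) and VIM (−0.27), which were not called with ZA alone. TCEA1P2 is a processed pseudogene counted at 2.96 to 9.91 CPM, and its reads may be shared with TCEA1.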

How the results depend on the processing

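ZA against vehicle gave 53 calls higher and 106 lower. In this section a correction was made with all 12 libraries unless a library is said to be left out. Relative log expression normalization (161), a mean of at least 5 CPM (195), no robust option (144) and the replicate block (219, with 75 higher and 144 lower) stayed within 1.5 times that count. Same-numbered libraries of both groups deviated together in 2 of 3 cases (r = 0.15, 0.14 and −0.04). Pairs of unlike number ran from −0.16 to 0.09. With 3 libraries in each group, these values cannot decide whether the numbers pair the samples. Other settings moved the counts (all, higher, lower): 1, 1 and 0 in a fit of the 6 libraries alone, the call being RHOB; 424, 137 and 287 with DESeq2; 395, 176 and 219 with no filter; 1925, 1074 and 851 with voom and quality weights (ZA library 1 had a weight of 0.206); 301, 128 and 173 with the replicate block and the GC and length correction; 326, 140 and 186 with that correction; 943, 469 and 474 with it and without ZA library 1; 2713, 1460 and 1253 without ZA library 1 in 5 libraries; 27, 6 and 21 at an adjusted p below 0.01; and 1, 1 and 0 on log2(FPKM + 1) and log2(FPKM + 0.1). Leaving out 1 of the 12 libraries gave 1 to 2489 calls, 1 to 1399 higher and 0 to 1090 lower. Where 0 genes were lower, 1661 (edgeR, 6 libraries), 2151 and 2148 (limma on FPKM) and 1566 (edgeR without vehicle library 1) had an unadjusted p below 0.05 in either direction. BITC+ZA against BITC moved from 2205 to 3979 in its 6 libraries, 4151 with voom, 1390 with the correction, 1358 with correction and replicate block and 558 at 0.01, and to 525 to 4116 without 1 library. The interaction moved from 425 to 684 with DESeq2, 706 with no filter, 815 with voom, 63 at 0.01, 14 and 14 on FPKM, and to 96 to 921 without 1 library. Of the 59 called genes that the naming rule chose, 58 stayed called without ZA library 1, 40 with the correction and 48 with both, and none changed direction under these settings. Only 1 of the 59 stayed called in the 6 libraries alone, without vehicle library 1 or on either FPKM scale. Without ZA library 2, 9 stayed called, without vehicle library 2, 19, without vehicle library 3, 16, and at an adjusted p below 0.01, 16. The cause of these shifts was not tested.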

Other observations

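Among called genes outside the lists, chosen after their values were seen, were RBM3 and CIRBP, RNA-binding proteins known for their induction by cold. RBM3 rose from 369, 376 and 367 CPM in vehicle to 437, 441 and 406 CPM under ZA, with no overlap (log2 fold change 0.21, SE 0.05, adjusted p = 0.023 in the quasi-likelihood test of edgeR; 0.20, adjusted p = 0.000169 without ZA library 1). CIRBP rose from 82.5, 85.7 and 84.7 to 95.2, 104 and 97.6 CPM (0.23, SE 0.05, adjusted p = 0.0334). Neither passed in BITC+ZA against BITC (−0.08 and 0.15), and both stayed called for ZA against vehicle with the correction and all libraries (adjusted p = 0.000846 and 0.0123). EGFR, the growth factor receptor, fell from 376, 376 and 359 to 327, 306 and 334 CPM (−0.20, adjusted p = 0.0434), and CDK6, a kinase of G1 phase, from 265, 262 and 252 to 228, 217 and 229 CPM (−0.21, adjusted p = 0.0333). Both have exons of over 10000 bases in all, and with the correction for GC content and length and all libraries neither was called (EGFR −0.10, adjusted p = 0.113, CDK6 −0.11, adjusted p = 0.120). Without ZA library 1 and with the correction EGFR was called (−0.11, adjusted p = 0.0361) and CDK6 was not (−0.07, adjusted p = 0.275). Neither passed in BITC+ZA against BITC (0.01 and −0.02).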
